A study of Mus musculus with 8 samples.

Results

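Interferon-stimulated genes are genes whose transcription is switched on when a cell senses type I, type II or type III interferon. A list of 42 of them was taken by gene symbol from the 47069 genes of the table, and all 42 symbols were found. The list holds antiviral effectors, oligoadenylate synthetases, nucleases, nucleic acid sensors, the ISG15 system with ubiquitin ligases and PARPs, membrane restriction factors, interferon-inducible GTPases and 5 further genes. RNA-Sequencing had been performed on OT-I T cells, mouse CD8+ T cells whose transgenic receptor recognises an ovalbumin peptide. Lymph node cells of mice labelled WT were stimulated for 24 h with 10 nM SIITFEKL (OVA-T4, a peptide that the receptor binds with low affinity), and 4 libraries were made from cells given OVA-T4 alone and 4 from cells given OVA-T4 with 5 ng/ml recombinant TGFβ. No unstimulated cells and no cells given interferon were analysed here, so every comparison is between 2 groups of antigen-stimulated cells. The methods name both OT-I and OT-I Rag1-/- mice, and which of them were used for these libraries is not in the labels, which name no sorting of the cells either. The labels call the replicates biological but do not say whether they came from separate animals, so the p-values measure the spread between these libraries.

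Type I interferons bind IFNAR1 and IFNAR2 and signal through JAK1 and TYK2 to a complex that holds STAT2 and IRF9 and binds the interferon-stimulated response element (ISRE). Type II interferon, IFNγ, binds IFNGR1 and IFNGR2 and signals through JAK1 and JAK2, and its target genes often carry the gamma-activated site (GAS). Activated CD8+ T cells secrete IFNγ, and many interferon-stimulated genes are also transcribed at a basal level without any interferon. TGFβ signals through SMAD proteins and is known to lower Ifng and granzyme B transcription in these cells.

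The libraries held between 35586261 and 41597929 reads, solved from the deposited FPKM values. Correlation between replicates of a group was 0.981 to 0.992, and the first principal component, which took 64.7% of the variance, separated the groups. The 5 CD8+ T cell markers (Cd3e, Cd3g, Cd8a, Cd8b1, Trac) summed to 1671 to 1939 FPKM with OVA-T4 and to 1993 to 2183 FPKM with TGFβ. Markers of other cell types were low but not equal between the groups. The 5 B cell markers summed to 3.86 to 5.23 and 10.3 to 12.2 FPKM, with Ms4a1 at 0 in all libraries. The 7 macrophage and monocyte markers summed to 4.78 to 12.5 and 10.6 to 42.1 FPKM. The 7 conventional dendritic cell markers summed to 5.95 to 15.1 and 17.7 to 28.3 FPKM. No marker of either list was at 0 throughout, but 5 of the former and 4 of the latter averaged under 0.5 FPKM. Clec9a had 1 read in all. Much of the sums came from Lyz2 (means of 3.83 and 16.5 FPKM), Cd68 (4.99 and 7.61), H2-Aa (4.22 and 9.79) and H2-Ab1 (5.29 and 10.85). The 4 neutrophil markers summed to 0 to 0.611 and 0.711 to 2.08 FPKM, with Ly6g and Retnlg at 0, and the 2 CD4+ T cell markers to 2.29 to 4.77 and 4.51 to 6.49 FPKM. Of these 2, Cd4 itself averaged 1.08 FPKM with OVA-T4 and 1.07 FPKM with TGFβ, and Zbtb7b averaged 2.43 and 4.29 FPKM. The 5 NK cell markers summed to 191 to 272 and 308 to 428 FPKM, nearly all of it from Nkg7, which CD8+ T cells also express. The part of these other cells in the results below was not tested, and in bulk RNA fewer cells of a type and less RNA per cell cannot be told apart.

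To show which members carry the classical binding sequence, promoters were read from the RefSeq promoter table (build GRCm38.p6, 250 bases before to 50 bases after each start), which matched 31 of the 42 members. The ISRE core GAAANNGAAA, searched on both strands, was found in 3.44% of all 32851 promoters and, counting genes, in a promoter of 3.99% of the 27025 genes of the table and of 18 of the 31 members. The 5 windows printed are those of 2 members whose FPKM fell with TGFβ (Isg15, Gbp7), 2 whose FPKM rose (Trim30a, Igtp) and 1 that did not pass the test (Ifit1). Each runs 5′ to 3′ on the strand of its gene for 120 bases and lies before the annotated start, with the ISRE core in capitals. The windows were chr4:156200819-156200938 on the minus strand for Isg15, chr3:142530216-142530335 on the plus strand for Gbp7, chr7:104465194-104465313 on the minus strand for Trim30a, chr11:58199436-58199555 on the plus strand for Igtp, and chr19:34640751-34640870 on the plus strand for Ifit1.
Isg15: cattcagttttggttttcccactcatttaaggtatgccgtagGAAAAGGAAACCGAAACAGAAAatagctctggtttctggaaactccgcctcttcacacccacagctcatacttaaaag
Gbp7: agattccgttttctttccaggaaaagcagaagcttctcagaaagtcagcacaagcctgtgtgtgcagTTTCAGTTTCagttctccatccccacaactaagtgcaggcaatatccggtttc
Trim30a: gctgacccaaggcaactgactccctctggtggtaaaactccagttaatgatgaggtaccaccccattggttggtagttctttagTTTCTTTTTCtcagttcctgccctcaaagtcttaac
Igtp: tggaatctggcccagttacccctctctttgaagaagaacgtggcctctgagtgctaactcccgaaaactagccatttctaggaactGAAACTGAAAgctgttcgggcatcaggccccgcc
Ifit1: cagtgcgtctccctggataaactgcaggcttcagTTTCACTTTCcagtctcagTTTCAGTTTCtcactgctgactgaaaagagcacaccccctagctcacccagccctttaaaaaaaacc

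The Isg15 window held 3 overlapping matches in 1 run, the Ifit1 window held 2, and the others held 1 each. Among members with a promoter in the table, the ISRE core was present in 5 of 5 that fell with TGFβ (Ifih1, Isg15, Bst2, Gbp2, Gbp7) and in 4 of 11 that rose (Ddx58, Trim30a, Igtp, Irgm1). It was present in 6 of 8 that did not pass the test and in 3 of 7 that were too low to be tested. The 7 that rose without a match were Ifit2, Isg20, Samhd1, Adar, Herc6, Dtx3l and Trim25. Outside the list, 305 tested genes held a match, of which 36.4% rose and 21.0% fell, beside 33.6% and 21.9% of all 8613 tested genes with a promoter. The GAS core TTCNNNGAA, which reads the same on both strands apart from its 3 free bases, was in 8.30% of all promoters, and by gene in 9.55% of the table and in 11 of the 31 members. These counts are a description of the letters in the window, with no test.

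The 42 members spanned a wide range of levels. A single read of Ifi44 was found in the 8 libraries, while Samhd1 averaged 221 ± 35.6 FPKM with OVA-T4 and 356 ± 69.0 FPKM with TGFβ (SD, n = 4 each). In the mean over all libraries, 12 members were under 1 FPKM, 20 were at 10 FPKM or more, 7 at 50 or more and 3 over 100. The low end held classical type I interferon targets (Mx1, Oas2, Oas1a, Oasl2, Ifit3, Rsad2, Ifitm1, Oasl1, Ifit1). The high end held the GTPases Igtp, Gbp2, Gbp4 and Irgm1, with Samhd1, Bst2 and Trim30a, as shown in the plot of levels by library. FPKM is scaled by the length of the gene and the reads of the library, so it allows levels of different genes to be set side by side.

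**Figure D1:**
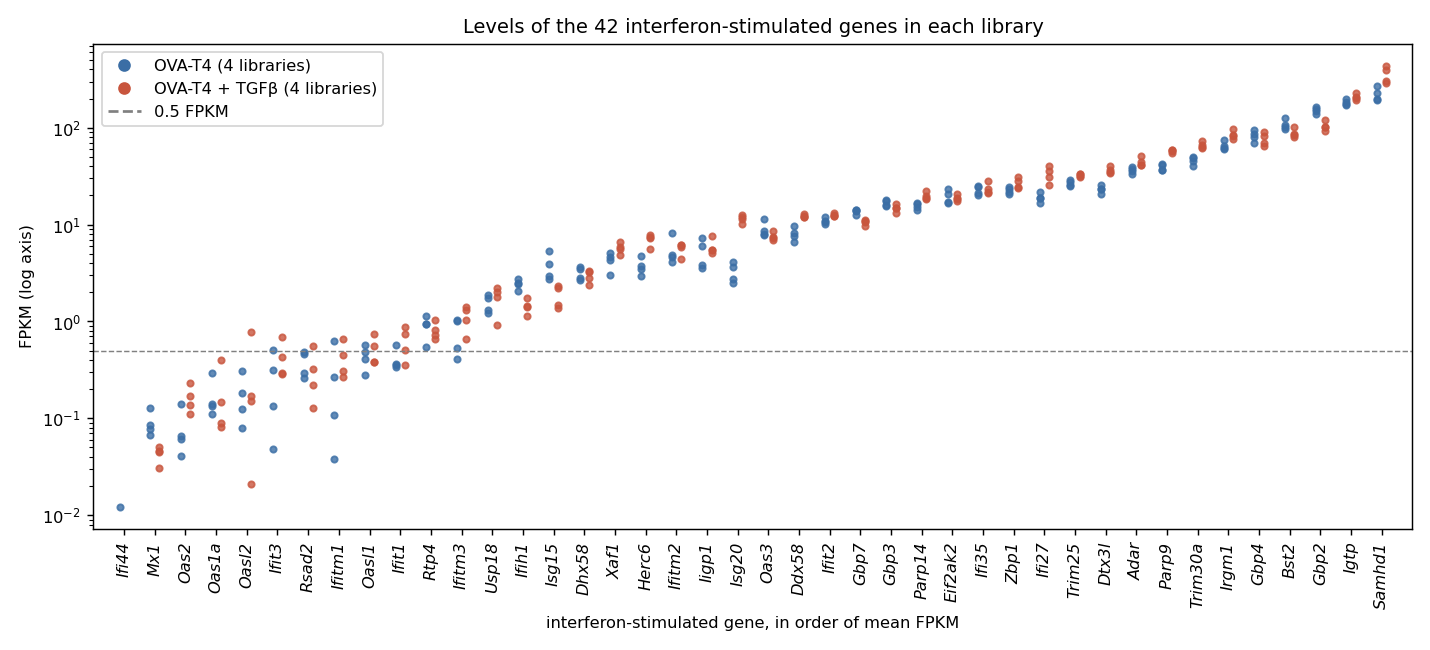
FPKM (log axis) of the 42 members in each OVA-T4 library (blue) and each OVA-T4 + TGFβ library (red), ordered by mean, with libraries at 0 left out and the dashed line at 0.5 FPKM, the minimum mean for the test. The 9 members on the left, from Ifi44 to Oasl1, lie under the line in the mean, and the highest is Samhd1.

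Of the 42 members, 33 had a mean of at least 0.5 FPKM and were tested with limma on log2(FPKM + 0.5) beside all 12879 such genes. The FPKM of 14 members was higher with TGFβ (adjusted p under 0.05, Benjamini-Hochberg over all genes tested), that of 5 was lower, and 14 did not pass. Over all genes tested, 30.7% were higher and 20.2% lower, 51.0% in either direction. Past a fold of 1.5, 6 members were higher (Isg20, Herc6, Ifi27, Samhd1, Dtx3l, Ddx58) and 2 were lower (Isg15, Ifih1), beside 13.7% and 6.07% of all genes tested. The libraries of the groups did not overlap in FPKM for 13 tested members in the higher and 4 in the lower direction, beside 29.1% and 18.9% of all genes tested (48.1% in either direction). Each of those members had an exact two-sided permutation p of 0.0286, the smallest that 4 against 4 libraries can give. The median log2 fold change of the tested members was 0.22, and that of all genes tested was 0.08, with members from -0.84 (Isg15) to 1.70 (Isg20). With median of ratios scaling these medians were 0.13 and -0.02, and with quantile normalization 0.055 and -0.03. The fold changes are on the log2(FPKM + 0.5) scale, which understates the change of low genes. Each of 15 members was called under all 20 alternative settings, 11 as higher and 4 as lower, and the calls of Ifit2, Adar, Bst2 and Igtp were not.

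**Figure D2:**
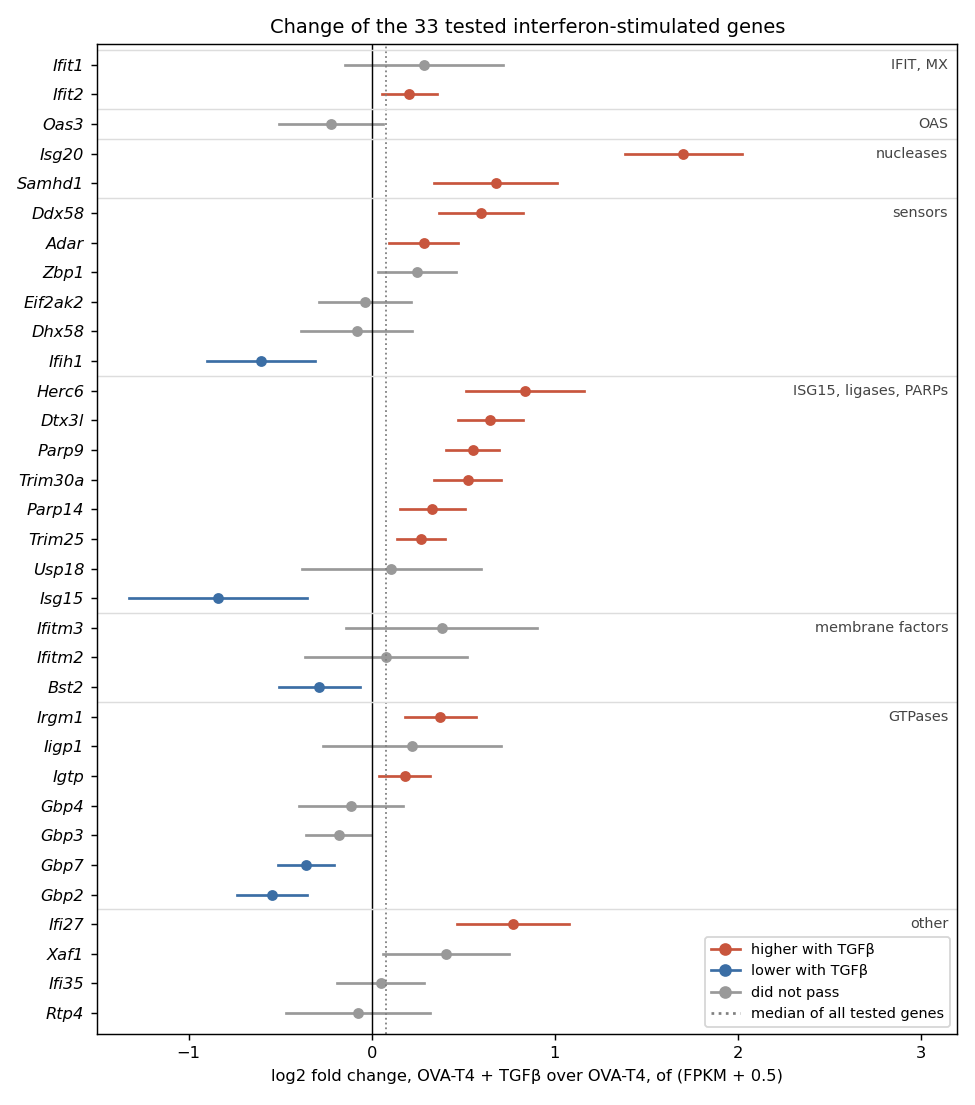
Log2 fold change (OVA-T4 + TGFβ over OVA-T4, of FPKM + 0.5) of the 33 tested members by role class, with 95% confidence intervals from limma, in red where higher, blue where lower and grey where the test was not passed. Isg20 stands at 1.70 and Isg15 at -0.84, and the dotted line is the median of all tested genes, 0.08.

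The largest change among the members was in the nucleases. Isg20 (chr7:78913424-78920396 in mm10) encodes an exonuclease that degrades single-stranded RNA. It was at 3.67, 2.76, 2.52 and 4.07 FPKM in OVA-T4 replicates 1 to 4 and at 11.5, 10.2, 12.0 and 12.6 FPKM with TGFβ. Every TGFβ library was above every OVA-T4 library by a wide margin. The log2 fold change was 1.70 (SE 0.14), a 3.26-fold rise, with an adjusted p of 1.78e-05. Samhd1 (chr2:157097533-157135265), which encodes a hydrolase that depletes deoxynucleotides and so limits reverse transcription, was at 226, 192, 197 and 269 FPKM with OVA-T4 and at 392, 307, 289 and 434 FPKM with TGFβ. The lowest TGFβ library, replicate 3, was still above the highest OVA-T4 library, replicate 4. Its log2 fold change was 0.68 (SE 0.15, adjusted p = 0.00460).

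The cytoplasmic RNA sensors moved in opposite directions. RIG-I, encoded by Ddx58 (chr4:40203773-40239828), recognises short RNA with a 5′ triphosphate, and MDA5, encoded by Ifih1 (chr2:62595798-62646255), recognises long double-stranded RNA. Ddx58 was at 8.15, 6.63, 9.57 and 7.61 FPKM with OVA-T4 and at 12.1, 11.9, 12.7 and 12.3 FPKM with TGFβ. The TGFβ libraries lay close together and above all OVA-T4 libraries, for a log2 fold change of 0.60 (SE 0.10, adjusted p = 0.00109). Ifih1 was at 2.50, 2.08, 2.44 and 2.75 FPKM with OVA-T4 and at 1.42, 1.15, 1.43 and 1.77 FPKM with TGFβ. All TGFβ libraries were under all OVA-T4 libraries, and the log2 fold change was -0.61 (SE 0.13, adjusted p = 0.00412). The ratio of Ifih1 to Ddx58 within a library, which no single scaling factor per library can alter, was 0.307, 0.314, 0.255 and 0.361 with OVA-T4 and 0.117, 0.0970, 0.112 and 0.144 with TGFβ. The ratio thus averaged 2.63-fold lower with TGFβ, a pair chosen after its values were seen.

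Of the other sensors, Adar, which encodes an enzyme that deaminates adenosine in double-stranded RNA, was at 35.5, 33.5, 37.9 and 39.6 FPKM with OVA-T4 and at 44.5, 41.7, 41.2 and 51.6 FPKM with TGFβ. The groups did not overlap, and the log2 fold change was 0.28 (SE 0.08, adjusted p = 0.0181). Without OVA-T4 replicate 2 the adjusted p of Adar was 0.0523, and with median of ratios scaling 0.0798. Adar also shares 1365 exon bases with Chrnb2 on the opposite strand, and the strand setting of the counting is not given in the sources used here. Zbp1, which encodes a sensor of left-handed nucleic acid, was at 23.2, 20.5, 21.9 and 24.7 FPKM and, with TGFβ, at 28.4, 23.8, 24.7 and 31.1 FPKM, so that the groups overlapped. Its log2 fold change of 0.25 (SE 0.09) had an adjusted p of 0.0535, which became 0.00313 with the replicate number as a block. Without OVA-T4 replicate 4 or TGFβ replicate 2 or 3, the adjusted p of Zbp1 was 0.0380, 0.0305 and 0.0456. Dhx58 (LGP2, a regulator of the other RNA helicases) and Eif2ak2 (PKR, a kinase that stops translation) did not pass, at log2 fold changes of -0.08 and -0.04.

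In the ISG15 system the modifier and its ligase parted. Isg15 (chr4:156199424-156200818), a ubiquitin-like protein that is joined to other proteins, was at 2.77, 2.92, 3.95 and 5.31 FPKM with OVA-T4 and at 2.31, 1.38, 1.48 and 2.21 FPKM with TGFβ. The groups did not overlap, although OVA-T4 replicate 1 and TGFβ replicate 1 were close. The log2 fold change was -0.84 (SE 0.22, adjusted p = 0.00985), the lowest of the tested members. Herc6 (chr6:57581000-57664632), in mice the main ligase for ISG15, was at 4.70, 2.96, 3.75 and 3.48 FPKM with OVA-T4 and at 7.27, 7.82, 7.37 and 5.60 FPKM with TGFβ. All TGFβ libraries were above all OVA-T4 libraries, with a log2 fold change of 0.84 (SE 0.14, adjusted p = 0.00118). Usp18, the protease that removes ISG15 and dampens signalling at the type I receptor, went from 1.54 ± 0.319 to 1.74 ± 0.575 FPKM (SD, n = 4 each) and did not pass (log2 fold change 0.11, SE 0.22).

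The ligases and PARPs of the same class all rose. Parp9 (chr16:35938470-35972605) and Dtx3l (chr16:35926511-35939151) encode partners in 1 ADP-ribosylating ubiquitin ligase complex and lie on opposite strands, with starts 681 bases apart and each start inside the other gene. Parp9 was at 36.3, 36.6, 42.4 and 41.7 FPKM with OVA-T4 and at 59.1, 55.2, 57.2 and 59.4 FPKM with TGFβ. Dtx3l was at 23.3, 20.8, 23.1 and 25.5 FPKM and, with TGFβ, at 36.8, 33.7, 35.1 and 40.7 FPKM. Neither gene overlapped between the groups, and the log2 fold changes were 0.55 (SE 0.06, adjusted p = 1.21e-04) for Parp9 and 0.65 (SE 0.08, adjusted p = 1.54e-04) for Dtx3l. The gene models share 458 exon bases on opposite strands, so part of the reads of either may belong to the other if the counting ignored strand. Trim30a, a ubiquitin ligase of the TRIM family, was at 45.4, 40.1, 48.2 and 50.1 FPKM with OVA-T4 and at 65.8, 61.5, 63.8 and 73.9 FPKM with TGFβ. It rose in each TGFβ library over each OVA-T4 library (log2 fold change 0.52, SE 0.08, adjusted p = 6.77e-04). Parp14, a mono-ADP-ribosyltransferase, and Trim25, the ligase that modifies RIG-I, rose by 0.33 and 0.27 on the log2 scale, and neither overlapped between the groups. In all, 6 of the 8 members of this class rose and Isg15 alone fell, beside 30.7% and 20.2% of all genes tested.

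**Figure D3:**
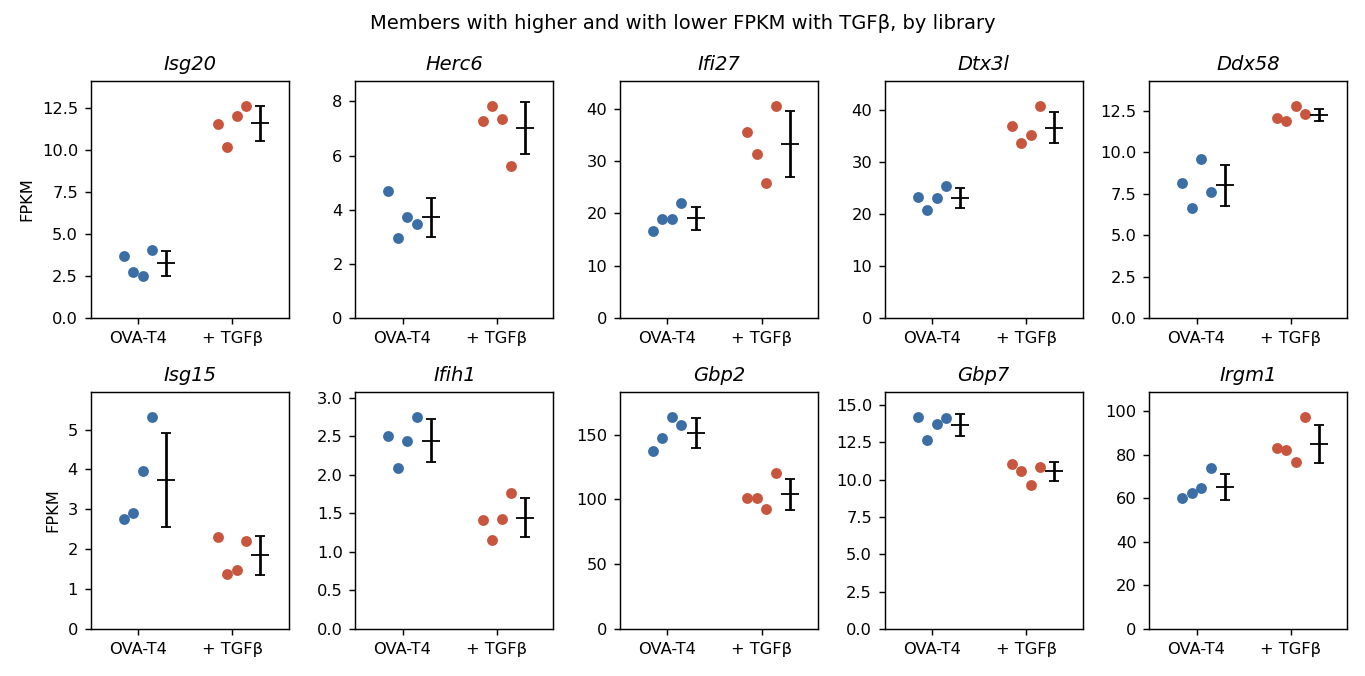
FPKM in each library (points, replicates 1 to 4 from left to right) of 10 members with OVA-T4 (blue) and OVA-T4 + TGFβ (red), with the mean and SD as black bars and each vertical axis from 0. Isg20, Herc6, Ifi27, Dtx3l, Ddx58 and Irgm1 do not overlap and are higher with TGFβ, and Isg15, Ifih1, Gbp2 and Gbp7 do not overlap and are lower.

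The interferon-inducible GTPases attack the vacuoles of intracellular pathogens and are strong targets of IFNγ. The guanylate binding proteins and the immunity-related GTPases of the list went in opposite directions where they passed the test. Gbp2 (chr3:142620602-142638008) was at 137, 147, 164 and 158 FPKM with OVA-T4 and at 101, 101, 92.7 and 121 FPKM with TGFβ. All TGFβ libraries were lower, with a log2 fold change of -0.54 (SE 0.09, adjusted p = 7.14e-04). Gbp7 (chr3:142530342-142550149) was at 14.2, 12.6, 13.7 and 14.1 FPKM and, with TGFβ, at 11.1, 10.6, 9.65 and 10.9 FPKM. It too fell without overlap, by 0.36 on the log2 scale (SE 0.07, adjusted p = 0.00212). Gbp3, which lies between them, did not pass (log2 fold change -0.18, adjusted p = 0.0864). The adjusted p of Gbp3 was 0.0491 without TGFβ replicate 4, 0.0164 with median of ratios scaling and 0.0119 with quantile normalization. Gbp4, which lies on chromosome 5 and not chromosome 3, did not pass either (82.8 ± 10.9 and 76.8 ± 12.0 FPKM, SD, n = 4 each).

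The immunity-related GTPase Irgm1 (chr11:48861968-48871683), a regulator of the others of its family, was at 60.3, 62.4, 64.7 and 74.0 FPKM with OVA-T4 and at 83.3, 82.3, 76.7 and 97.3 FPKM with TGFβ. The groups did not overlap, and the log2 fold change was 0.37 (SE 0.09, adjusted p = 0.00564). Igtp, an effector of the family, was at 173, 176, 186 and 199 FPKM with OVA-T4 and at 203, 207, 195 and 226 FPKM with TGFβ. TGFβ replicate 3 was under OVA-T4 replicate 4, and the log2 fold change was 0.18 (SE 0.06, adjusted p = 0.0362). The adjusted p of Igtp was 0.0591 to 0.0933 without any 1 of OVA-T4 replicates 1, 2 and 3 and TGFβ replicates 1, 2 and 4, and 0.323 with median of ratios scaling. Iigp1 was at 5.17 ± 1.74 and 5.95 ± 1.14 FPKM (SD, n = 4 each) and did not pass. The ratio of Gbp2 to Irgm1 within a library was 2.28, 2.36, 2.53 and 2.13 with OVA-T4 and 1.22, 1.23, 1.21 and 1.24 with TGFβ. The libraries of a group lay close together in this ratio, which averaged 1.90-fold lower with TGFβ in a pair chosen after its values were seen. Reads of the GTPase genes can be shared between near-identical copies, and Igtp shares 162 exon bases with Irgm2 on the same strand.

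Other GTPase genes outside the 42, named after their values were seen, lie in the same clusters. On chromosome 3, Gbp5 fell by 0.52 on the log2 scale (adjusted p = 0.00139). On chromosome 5, Gbp8 rose by 1.03 (adjusted p = 0.00539) and Gbp6 by 0.51 (adjusted p = 0.0111), while Gbp9 and Gbp10 did not pass at 0.40 and 0.46. On chromosome 11, Irgm2 rose by 0.27 (adjusted p = 0.0220), and Tgtp1, Tgtp2 and Ifi47 did not pass at 0.24, 0.19 and 0.15. The difference between the clusters was not tested.

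The antiviral effectors of the IFIT and MX families were mostly near the limit of detection. Ifit2, whose protein binds foreign RNA, was the exception, at 10.8, 10.1, 10.8 and 11.8 FPKM with OVA-T4 and 12.3, 12.5, 13.3 and 12.4 FPKM with TGFβ. The groups were close but did not overlap, for a log2 fold change of 0.21 (SE 0.07, adjusted p = 0.0288). The adjusted p of Ifit2 was 0.0514 to 0.0767 without any 1 of replicates 1, 2 and 3 of either group, 0.177 with median of ratios scaling and 0.475 with quantile normalization. Ifit1, which binds RNA lacking cap methylation, was at 0.364, 0.336, 0.354 and 0.570 FPKM and, with TGFβ, at 0.743, 0.508, 0.353 and 0.872 FPKM. The groups overlapped and the test was not passed (log2 fold change 0.29, adjusted p = 0.236). Ifit1 was also the 1 tested member with a mean under 0.5 FPKM in a group, with OVA-T4.

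The 9 members under a mean of 0.5 FPKM were Ifit3, Mx1, Rsad2, Oas1a, Oas2, Oasl1, Oasl2, Ifitm1 and Ifi44, and together they had 54 to 164 reads in an OVA-T4 library and 90 to 193 reads in a TGFβ library. Mx1, which encodes a GTPase that traps viral nucleocapsids, was at 0.0849, 0.0679, 0.0783 and 0.127 FPKM with OVA-T4 and at 0.0507, 0.0456, 0.0309 and 0.0453 FPKM with TGFβ. The groups did not overlap at this low level. With no filter Mx1 had a log2 fold change of -0.12 on the log2(FPKM + 0.5) scale (adjusted p = 0.0477), and with limma voom on the solved reads one of -0.96 (adjusted p = 0.140). Rsad2 (viperin, which makes a chain-terminating nucleotide) was between 0.127 and 0.558 FPKM and Ifit3 between 0.0480 and 0.688 FPKM over the 8 libraries. None of the 9 other than Mx1 passed in either of those fits, which does not show that they did not differ.

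Oas3, which makes the 2′-5′ oligoadenylate that activates RNase L, was the only tested member of the OAS family. It was at 7.85, 8.07, 11.5 and 8.54 FPKM with OVA-T4 and at 7.48, 7.26, 8.65 and 6.89 FPKM with TGFβ. The groups overlapped, since TGFβ replicate 3 was above OVA-T4 replicates 1, 2 and 4. The log2 fold change of -0.22 (SE 0.13) had an adjusted p of 0.167, which became 0.0370 when blocked by replicate number, or 0.0376 under quantile normalization. Oasl1 was at 0.485, 0.282, 0.406 and 0.567 FPKM with OVA-T4 and at 0.379, 0.734, 0.384 and 0.564 FPKM with TGFβ, in full overlap. Oas1a, Oas2 and Oasl2 were under 0.5 FPKM in every library but TGFβ replicate 4, where Oasl2 was at 0.777 FPKM. The Oas1 and Ifit3 genes have near-identical copies, between which reads could be split.

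Of the membrane restriction factors, Bst2 (tetherin, which holds budding virus at the cell surface) was at 101, 107, 97.6 and 126 FPKM with OVA-T4 and at 80.5, 86.5, 83.4 and 103 FPKM with TGFβ. TGFβ replicate 4 was above OVA-T4 replicates 1 and 3, so the groups overlapped. The log2 fold change was -0.29 (SE 0.10, adjusted p = 0.0355). The adjusted p of Bst2 was 0.0721 to 0.0974 without any 1 of OVA-T4 replicates 2 and 4 and TGFβ replicates 1, 2 and 3, 0.0743 with no filter, 0.0616 with TPM scaling and 0.0965 with quantile normalization. Bst2 also marks plasmacytoid dendritic cells, whose 7 other markers summed to 7.60 to 14.7 FPKM with OVA-T4 and 9.04 to 13.3 FPKM with TGFβ. The largest part was Ccr9, which averaged 6.52 FPKM with OVA-T4 and 8.18 FPKM with TGFβ. Of the 7, 4 averaged under 0.5 FPKM, with Klk1 at 0 and Siglech at 6 reads over all libraries. Ifitm2, which blocks virus fusion in endosomes, was at 4.59, 4.81, 4.15 and 8.17 FPKM with OVA-T4 and at 5.82, 6.18, 4.37 and 6.10 FPKM with TGFβ, in full overlap. Ifitm3, of the same family, went from 0.744 ± 0.318 to 1.11 ± 0.334 FPKM (SD, n = 4 each). Its adjusted p was 0.196, and 0.0494 with the replicate number as a block.

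Among the remaining members, Ifi27 (chr12:103434211-103440239), which encodes a small hydrophobic membrane protein, rose. It was at 16.6, 18.9, 19.0 and 21.9 FPKM with OVA-T4 and at 35.6, 31.3, 25.8 and 40.4 FPKM with TGFβ. The groups did not overlap, and the log2 fold change was 0.77 (SE 0.14, adjusted p = 0.00132). Ifi35 was at 20.2, 21.2, 24.4 and 25.2 FPKM and, with TGFβ, at 23.3, 21.2, 21.7 and 28.1 FPKM, in overlap and not passing (log2 fold change 0.05). Xaf1, whose protein opposes an inhibitor of apoptosis, had a log2 fold change of 0.41 (SE 0.15) with an adjusted p of 0.0502, and of 0.0182 with the replicate number as a block. Without OVA-T4 replicate 4 or TGFβ replicate 3 the adjusted p of Xaf1 was 0.0285 and 0.0381. Rtp4 did not pass, at 0.892 ± 0.245 and 0.812 ± 0.168 FPKM (SD, n = 4 each).

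The members also differed between libraries of the same treatment. In the OVA-T4 group, replicate 4 was the highest of the 4 for 26 of 42 members (61.9%), beside 35.5% of all genes tested. In the TGFβ group, replicate 4 was the highest for 28 of the 41 members with reads there (68.3%), beside 32.2% of all genes tested. OVA-T4 replicate 2 was the lowest for 24 of 42, beside 28.8% of all genes tested. These counts of members include the 9 that were too low to be tested, while the shares beside them cover tested genes alone. The summed FPKM of the 9 low members was 1.55, 0.995, 1.96 and 2.83 with OVA-T4 and 1.83, 2.32, 1.66 and 3.53 with TGFβ, again highest in replicate 4 of each group. Without replicate 4 of both groups, 14 members were higher and 5 lower with TGFβ, beside 28.7% and 18.7% of all genes tested, and the median log2 fold change was 0.24, beside 0.09 for all genes tested. That comparison was chosen after seeing the data.

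**Figure D4:**
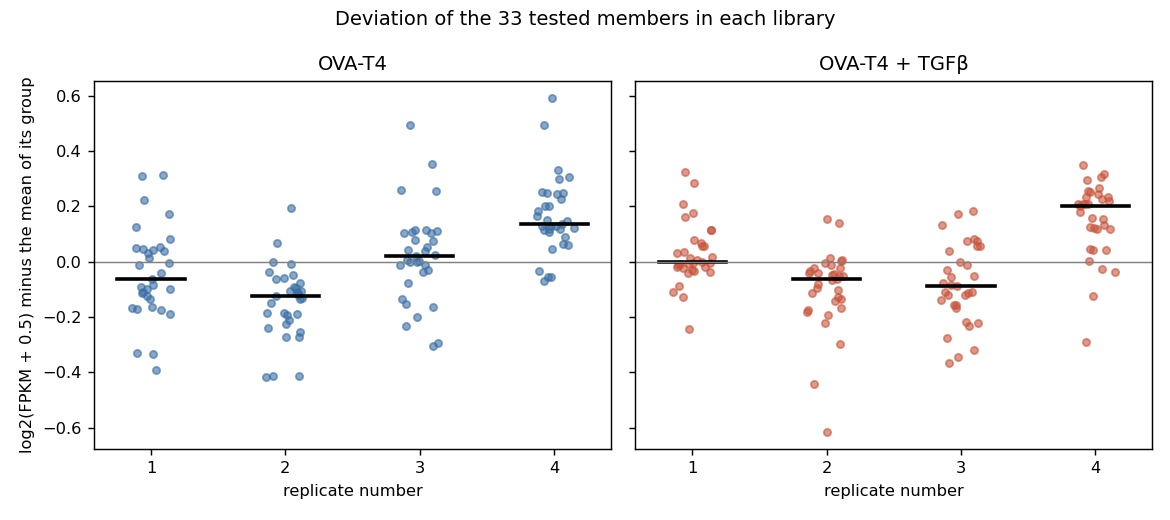
Deviation of each of the 33 tested members (points) from the mean of its own group on the log2(FPKM + 0.5) scale, by replicate number, with OVA-T4 on the left and OVA-T4 + TGFβ on the right and the median as a black bar. The median is highest in replicate 4 of both groups, and points are spread sideways at random for legibility.

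The genes that make and carry the interferon signal were taken from lists of the same pathway, which were chosen with earlier results of these data known. Of 21 interferon ligand genes, Ifng was the only one with a mean of at least 0.5 FPKM. Ifnb1 was at 0 reads in all libraries, as were the listed Ifna genes other than Ifnab, which had 1 read in all. Ifng was at 11.2, 8.95, 8.15 and 20.0 FPKM with OVA-T4 and at 8.86, 6.24, 4.33 and 10.4 FPKM with TGFβ, highest in replicate 4 of each group. The groups overlapped, and the log2 fold change of -0.64 (SE 0.31) had an adjusted p of 0.119. With the replicate number as a block the adjusted p of Ifng was 0.00185, and each TGFβ library was under the OVA-T4 library of its own number.

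Of 5 tested receptor genes, 3 were higher with TGFβ and none lower, beside 30.7% and 20.2% of all genes tested. The count higher was 1 (Ifngr2) with no filter, beside 16.8% of all genes in that fit. It was also 1 with median of ratios scaling, beside 24.3%. Ifngr2, the signalling chain of the IFNγ receptor, was at 4.57, 4.29, 4.62 and 5.89 FPKM with OVA-T4 and at 23.2, 18.8, 19.6 and 25.7 FPKM with TGFβ. It rose without overlap by 2.06 on the log2 scale (SE 0.12, adjusted p = 3.10e-06), more than any of the 42 members. Il10rb and Ifnar1 rose by 0.31 and 0.23, with adjusted p of 0.0327 and 0.0300. Both calls were lost without any 1 of OVA-T4 replicates 2 and 3 and TGFβ replicates 1 and 4, with adjusted p of 0.0506 to 0.0844, and that of Il10rb also without TGFβ replicate 2 or 3. Ifngr1, the ligand-binding chain, was at 83.7 to 98.0 FPKM over all 8 libraries and did not pass.

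Of the 10 signal transducers, 9 were higher with TGFβ and none was lower, beside 30.7% and 20.2% of all genes tested, and Irf7 did not pass (4.78 and 7.71 FPKM in the mean). Stat2, part of the complex that binds the ISRE, was at 5.66, 5.33, 6.11 and 6.62 FPKM with OVA-T4 and at 11.5, 9.70, 10.1 and 12.1 FPKM with TGFβ. All TGFβ libraries were above all OVA-T4 libraries, with a log2 fold change of 0.82 (SE 0.10, adjusted p = 1.37e-04). Irf9, which gives that complex its DNA binding, rose by 0.76 (adjusted p = 5.18e-05). The median log2 fold change of the 10 was 0.69, beside 0.22 for the tested members and 0.08 for all genes tested. Stat2 and Irf9 are themselves known to be raised by interferon.

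**Figure D5:**
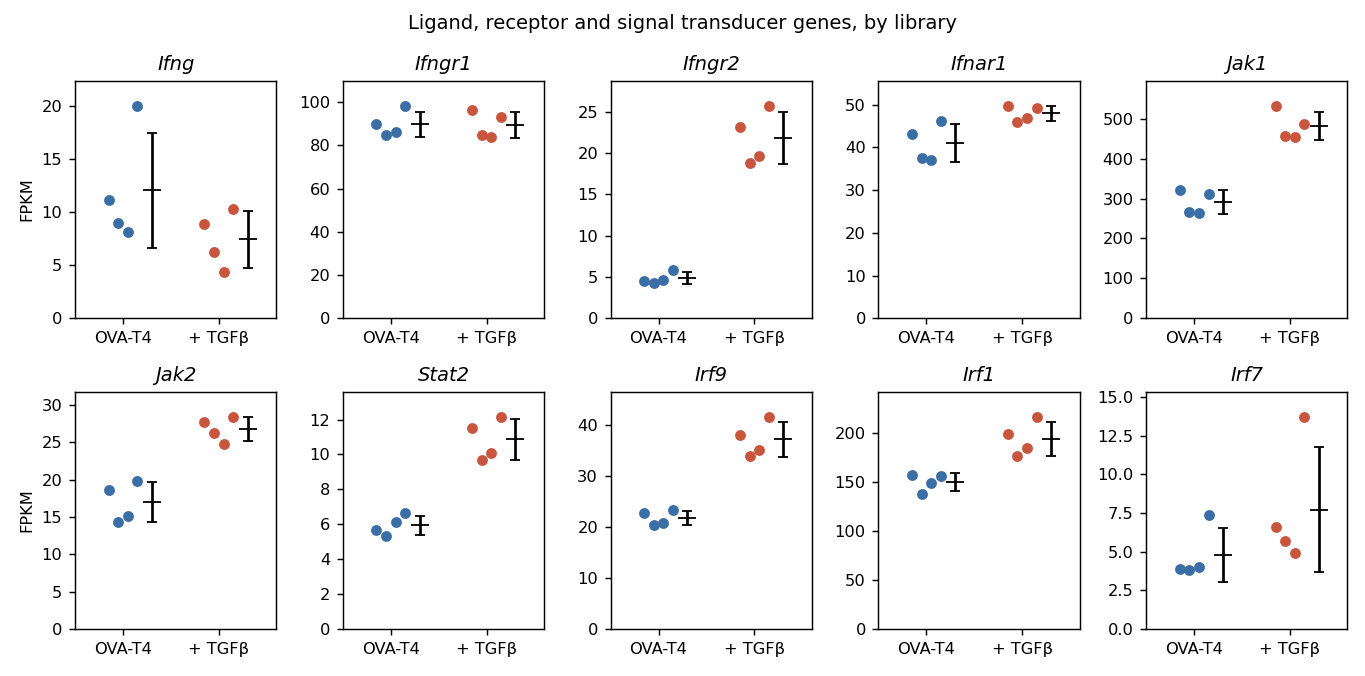
FPKM in each library (points, replicates 1 to 4 from left to right) of 10 ligand, receptor and transducer genes with OVA-T4 (blue) and OVA-T4 + TGFβ (red), with the mean and SD as black bars and each vertical axis from 0. Ifngr2, Jak1, Jak2, Stat2, Irf9 and Irf1 do not overlap between the groups, Ifngr1 stays between 83.7 and 98.0, and Ifng and Irf7 are highest in replicate 4 of each group.

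All 12 genes listed as inhibitors of the pathway passed the test, 9 as higher and 3 as lower. Of all genes tested, 51.0% passed, 30.7% as higher and 20.2% as lower. With median of ratios scaling the count of these genes higher was 6, beside 24.3% of all genes tested. The call of Ptpn11 as lower was lost with TPM scaling (adjusted p = 0.0627) and without replicate 4 of both groups (0.0536). That of Irf2bp1 was lost without OVA-T4 replicate 1 or 2 or TGFβ replicate 3 (0.0520 to 0.0543). Cish rose by 1.66 on the log2 scale and Socs3, a feedback inhibitor of cytokine receptors, by 0.88 (adjusted p = 1.42e-04 and 0.00298). Whether either acts on interferon signalling in these cells was not tested. Ptpn2, a phosphatase of JAK kinases, fell by 0.27 (adjusted p = 0.00231). Of 12 tested genes listed under the induction of interferon, 6 rose and 2 fell, beside 30.7% and 20.2% of all genes tested. Of the 6, Tmem173 and Irf3 overlapped between the groups (adjusted p = 0.0462 and 0.0309). Tlr7, an endosomal RNA receptor, rose by 1.58 (adjusted p = 1.57e-05), while Unc93b1, which carries such receptors to the endosome, fell by 0.45 (adjusted p = 0.00833).

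A second list of 76 further interferon-stimulated genes, which shares no member with the 42, had 72 genes matched by symbol and 55 tested. Of these, 31 were higher with TGFβ, 6 were lower and 18 did not pass, beside 30.7% higher and 20.2% lower of all genes tested. Their median log2 fold change was 0.42, beside 0.08 for all genes tested. This list was chosen with earlier results of these data known, so its counts and median are a description, with no test of the list. Apol9b had no read in any OVA-T4 library and 302 to 476 reads in the TGFβ libraries, where it averaged 6.43 FPKM. Against a floor of 3 reads per library this was at least 119-fold higher, with the caution that Apol9a is a near-identical copy. Tnfsf10, which encodes the death ligand TRAIL, rose from a mean of 6.88 to 18.5 FPKM (a log2 fold change of 1.37 at adjusted p = 6.22e-07) and Oas1b from 4.17 to 10.3 FPKM (1.23 at adjusted p = 0.00133). In the other direction, Phf11b fell from a mean of 32.9 to 13.8 FPKM (a log2 fold change of -1.23 at adjusted p = 2.12e-05) and Epsti1 from 23.7 to 13.7 FPKM (-0.79 at adjusted p = 7.69e-04).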

How the data were processed

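RNA-Sequencing of 8 libraries of OT-I T cells was analysed, 4 with OVA-T4 and 4 with OVA-T4 + TGFβ. The authors deposited FPKM values per gene, and CASAVA, HISAT2, HTSeq and the build mm10 stand in the submitters' processing notes, with versions not given in the sources used here. Since the deposited unit is FPKM and not counts, limma 3.58.1 (R 4.3.3, variance trend) on log2(FPKM + 0.5) was the main test, and the solved reads served as an alternative. It took in the 12879 genes that averaged 0.5 FPKM or more, and Benjamini-Hochberg adjustment ran over all of them. The labels name a Qiagen kit for RNA and the methods another. Whole reads were solved from the FPKM values, within 0.005 reads, with the GENCODE M21 exon length where it gave whole reads in all libraries. Elsewhere the smallest length that did so was taken. A solution was found for all 23842 genes above 0, which does not show that each is right, least so for genes with few reads. The limma test was checked on simulated data. Single genes also had two-sided exact permutation tests (Python 3.11.15).

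The members and lists were chosen with earlier results of these data known. Members called at over 1.5-fold, the 2 highest of each class and those a statement turns on were given in every library, and at most 3 called genes in each direction were named of other lists, with exceptions stated. Groups came from the sample labels, and 0 other columns of samples were in the table. Same-numbered libraries deviated together from their group means (r = 0.179, 0.205, 0.419 and 0.505). They were therefore taken as pairs in the blocked fit alone, on the ground of the data, since the labels state no pairs. The main test had no block. Libraries of different numbers had r of -0.489 to 0.254. TGFβ replicate 1 matched OVA-T4 replicate 4 better (0.246) than its own number, and TGFβ replicate 2 matched OVA-T4 replicate 3 better (0.239). The pairing, and the blocked values with it, is therefore uncertain. Blocked values stand beside a result where they change its call. The alternatives were pseudocounts of 0.1 and 1 FPKM, a minimum of 1 FPKM or none, 3 other scalings (median of ratios, TPM, quantile), protein-coding genes alone, library quality weights, the replicate block, leaving out each library and, chosen after seeing the data, limma voom on solved reads and leaving out replicate 4 of both groups. Promoters came from RefSeq. Some listed genes are not reported here by name.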

Additional observations from a re-analysis of the deposited data

Results flagged for a closer look

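Of 66 sets of 4 libraries checked (33 tested members in each group), 3 had 1 library far from the other 3, and chance gives about 1 in 20. Ifit1 was at 0.570 FPKM in OVA-T4 replicate 4, where the next highest library was at 0.364. Ifitm2 was at 8.17 FPKM in OVA-T4 replicate 4, where the next highest was at 4.81. Iigp1 was at 7.63 FPKM in TGFβ replicate 4, where the next highest was at 5.52. All 3 were the highest library of their group and carried the replicate number 4, and none of the 3 genes passed the test between the groups.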

How the results depend on the processing

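The counts of members higher and lower stayed within 1.5 times of 14 and 5 under all 20 alternatives (11 to 17 and 4 to 6). With the replicate number as a block they were 17 and 6, beside 35.5% and 25.4% of all genes tested. With median of ratios scaling they were 11 and 6, beside 24.3% and 26.9% of all genes tested. With quantile normalization they were 13 and 6, beside 23.2% and 26.4%, and with TPM scaling 16 and 4, beside 32.8% and 17.6%. The share of all called genes that were higher was 60.3%, and 47.5% with median of ratios scaling, 46.8% with quantile normalization and 65.1% with TPM scaling. Quantile normalization shifted the median of all genes by -0.11 and left the median of the members at 0.055, beside -0.03 for all genes. With the block 1 interferon ligand was lower instead of 0, and the block changed no call of a member other than Oas3, Zbp1, Ifitm3 and Xaf1. Receptors called higher numbered 1 in place of 3 with no filter and with median of ratios scaling, and 1 to 3 without any 1 library. Induction genes called lower numbered 1 in place of 2 with no filter and with TPM scaling, 1 to 2 without any 1 library, and 1 without replicate 4 of both groups. Mb21d1 (cGAS) was the call lost, at adjusted p of 0.0697 to 0.104 without OVA-T4 replicate 1 or 4 or any TGFβ replicate. Members that did not pass changed sign as follows. Ifitm2 was at -0.015 with median of ratios scaling, -0.13 with quantile normalization and -0.022 to 0.28 without any 1 library (negative without OVA-T4 replicate 3). Ifi35 was at -0.053, -0.022 and -0.037 to 0.098 (negative without OVA-T4 replicate 1 or TGFβ replicate 4) in the same order. Usp18 was at -0.16 with quantile normalization and at -0.0016 to 0.31 without any 1 library (negative without TGFβ replicate 1). Eif2ak2 was at 0.0014 with TPM scaling, 0.017 without replicate 4 of both groups, and -0.11 to 0.051 without any 1 library (positive without OVA-T4 replicate 3 or 4 or TGFβ replicate 1). Rtp4 was at -0.21 to 0.0067 (positive without OVA-T4 replicate 4). The cause of these changes was not tested.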
